A study of Rattus norvegicus with 16 samples.

Results

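The alveolar epithelium of 16 rat lungs was followed through 10 of its characteristic genes. There were 4 genes of type 1 cells (Hopx, Ager, Aqp5 and Cav1) and 6 genes of the surfactant system of type 2 cells (Sftpc, Sftpb, Sftpa1, Sftpd, Abca3 and Lamp3). They were chosen by symbol, as the probe sets annotated to exactly 1 of these symbols, and each of the 10 had 1 probe set. They are 10 of 14506 genes with a value in the table, and all 10 entered the tests, since no filter on low values was used. Of the 10, Hopx passed as lower in hypoxia alone against normoxia, where 5.63% of all genes passed in either direction. That call was lost under 5 alternative settings. The other 9 did not pass the test in any comparison.

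Each array held right lung RNA from 1 male Sprague-Dawley rat, and each of 4 groups had 4 rats. Rats of the hypoxia, estradiol and fulvestrant group spent 2 weeks at 362 mmHg, which corresponds to 10% oxygen at sea level. They carried pumps under the skin that released 17β-estradiol at 75 µg/kg/day for 3 weeks, with 1 week of recovery before the hypoxia, and they received the estrogen receptor antagonist fulvestrant at 3 mg/kg/day by injection. Rats of the hypoxia and estradiol group had the same hypoxia, pumps and recovery week without fulvestrant. Rats of the hypoxia group had the hypoxia alone, with no implantation or recovery stated for them, and rats of the normoxia group had none of the 3 treatments. The labels state no age, and they do not say whether the hypoxia and normoxia rats carried pumps without drug. They give the lung vessels as flushed with saline before freezing. The series title places the comparison in a model of pulmonary hypertension and asks for a part of estrogen receptors in the effect of estradiol.

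Normoxia replicate 4 is called normoxia by its title and hypoxia by its treatment field. It was kept in normoxia. Called or nearly called Hopx differences from normoxia, and the counts of genes called, are also given with it left out or counted as hypoxia. Differences of list genes, marker genes and the other members from normoxia are given only with it in normoxia. Estradiol replicates 2 and 3 stood apart on the second principal component of all genes (17.4% of the variance), at 25.4 and 22.3, against -7.85 to 5.18 in the other 14 arrays. Nothing in the labels says that rats of a group were housed or processed separately. The limma p-values thus measure the spread within groups of 4 samples, pooled over the 4 groups and drawn towards that of all genes.

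The alveolus is lined by flat type 1 cells, which cover most of the surface and form the barrier for gas, and by cuboidal type 2 cells, which make surfactant and serve as progenitors of type 1 cells. Surfactant is a film of phospholipid and of the proteins SP-A, SP-B, SP-C and SP-D that keeps the alveolus open. It is assembled in lamellar bodies, lysosome-related organelles into which ABCA3 pumps lipid. In a whole lung sample, fewer cells of a type and less RNA per cell cannot be told apart.

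Promoter sequences of the gene that passed the test, Hopx, and of the surfactant gene with the smallest p over the 4 groups, Abca3, are shown so that the members can be read beside their regulatory sequence. Each window runs from 250 bases before to 50 bases after the RefSeq start of the gene in build GRCr8. Capitals mark ACGTG, a form of the core of the hypoxia response element, on either strand. Other forms of that core were not searched.
Hopx, chr14:31429163-31429462, plus strand: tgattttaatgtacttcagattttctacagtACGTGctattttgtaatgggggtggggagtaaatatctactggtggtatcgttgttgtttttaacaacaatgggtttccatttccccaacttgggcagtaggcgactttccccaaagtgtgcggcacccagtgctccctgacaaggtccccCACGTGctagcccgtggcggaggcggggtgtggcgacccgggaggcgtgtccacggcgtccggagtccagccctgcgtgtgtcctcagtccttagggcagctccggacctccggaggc
Abca3, chr10:13886834-13887133, plus strand: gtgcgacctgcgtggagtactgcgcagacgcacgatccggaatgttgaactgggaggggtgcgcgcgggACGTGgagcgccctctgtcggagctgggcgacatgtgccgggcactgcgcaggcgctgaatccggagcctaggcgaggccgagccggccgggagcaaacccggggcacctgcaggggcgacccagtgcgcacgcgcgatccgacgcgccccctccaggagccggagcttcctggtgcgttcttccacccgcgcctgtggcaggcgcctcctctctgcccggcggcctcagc
Hopx held 3 matches, which begin at positions -219, -68 and -67 from the start, and the last 2 overlap on opposite strands as CACGTG. Abca3 held 1 match, at -181. RefSeq windows were found for 8 of the 10 members, 9 windows in all because Cav1 has a pair of them. ACGTG occurred on either strand in 4 of the 8 members (Hopx, Aqp5, Cav1 and Abca3) and in 19.3% of all 33469 windows of this length. CTCAAG, a core bound by the lung epithelial factor NKX2-1, occurred in 1 of the 8, Sftpb, at -110 and -25, and in 15.8% of all windows. TATAAA occurred in Cav1 and Sftpa1 and in 14.2% of all windows. The palindromic estrogen response element, allowing no mismatch, occurred in none of the members' windows and in 0.0269% of all windows. These matches describe the letters of the windows only.

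Values are log2 RMA signals, which the authors summarised per probe set after background correction and normalization between arrays, so 1 unit is a doubling. Differences between groups were tested with limma over all 16 arrays, and the adjusted p is the Benjamini-Hochberg value over all 14506 genes with a threshold of 0.05. Several members lay near the top of what the arrays recorded. Sftpc was 0.050 to 0.17 log2 units below the brightest gene of its array, Sftpb 0.078 to 0.26 and Sftpa1 0.18 to 0.31, whereas Abca3 was 1.99 to 2.52 below. The type 1 genes Cav1 (0.36 to 0.60 below) and Ager (0.42 to 0.60 below) came next after Sftpa1. A probe set so near the top has little room to show an increase, and differences there may be too small. The pooled SD within groups was 0.033 for Sftpc and 0.034 for Sftpb, against 0.15 for Lamp3 and 0.14 for Sftpd. The median over the 643 genes at least as bright as the dimmest member, Abca3, was 0.087, and the median over all genes was 0.12.

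**Figure D1:**
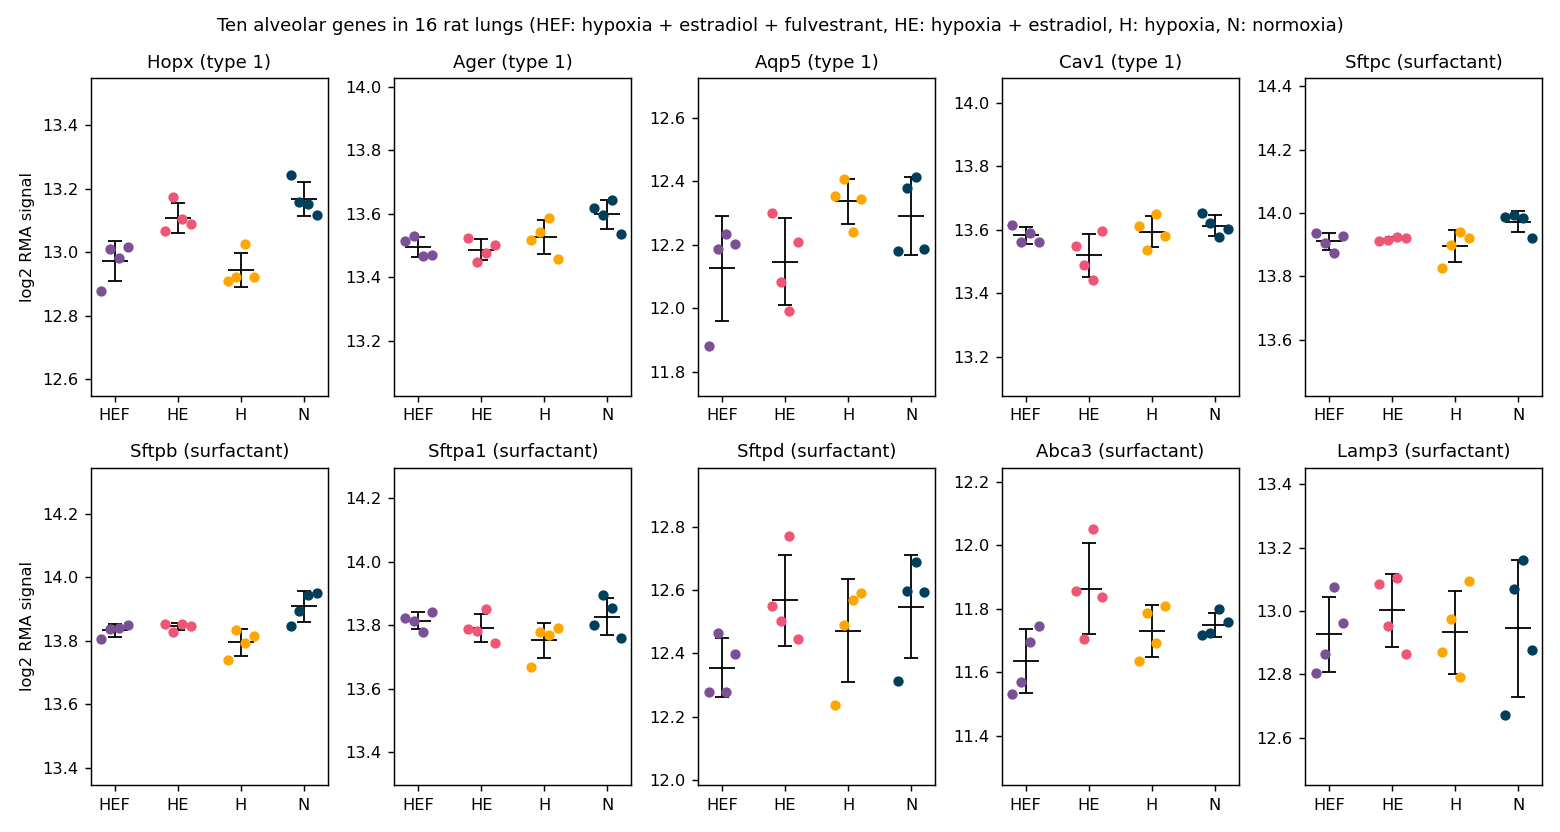
The log2 RMA signal of the 10 alveolar genes is plotted for each of the 16 lungs (points, 4 per group), with the group mean and SD as bars; every panel spans 1 log2 unit. For Hopx the hypoxia points (12.91 to 13.03) lie below all estradiol points (13.07 to 13.17) and all normoxia points (13.12 to 13.24), while most other genes overlap between groups.

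The first question is how 2 weeks of low oxygen bore on the alveolar genes. Hopx, a homeodomain protein that does not bind DNA and marks type 1 cells, had log2 signals of 12.91, 12.92, 13.03 and 12.92 in the hypoxia lungs, against 13.24, 13.16, 13.15 and 13.12 in the normoxia lungs. All 4 hypoxia values were below all 4 normoxia values, as they were for 5.33% of all genes. Hopx fell 1.17-fold, a log2 difference of -0.22 (SE 0.052, 95% interval -0.33 to -0.11, limma adjusted p = 0.0195). It was the only member to pass, so 1 of 10 fell and 0 rose, where 2.43% of all genes fell, 3.21% rose and 5.63% passed in either direction. Among the 643 genes at least as bright as Abca3, 8.55% passed. An unadjusted p under 0.05 was reached by 2 of 10 members (Hopx and Sftpb) and by 20.4% of all genes. The Hopx call was lost without normoxia replicate 1 (limma adjusted p = 0.0756), hypoxia replicate 1 (0.0662) or hypoxia replicate 2 (0.0565). It was also lost when the conflicting lung was moved to hypoxia (0.122), where the number of genes called over the whole table was 40 rather than 817, and it held without normoxia replicate 4 (log2 -0.24, limma adjusted p = 0.0258).

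The other 3 type 1 genes were close to their normoxia level in hypoxia. Ager, the receptor for advanced glycation end products, which is concentrated on the basal side of type 1 cells, had 13.52, 13.54, 13.59 and 13.46 in hypoxia, against 13.62, 13.59, 13.64 and 13.54 in normoxia. Its groups overlapped, and the log2 difference was -0.072 (95% interval -0.17 to 0.029, limma adjusted p = 0.428). Aqp5, the apical water channel of type 1 cells in the rat, differed by 0.048 (interval -0.14 to 0.24). Cav1, the coat protein of caveolae, differed by -0.019 (interval -0.12 to 0.085); it is also abundant in endothelium, so its level in whole lung does not report on type 1 cells alone.

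All 6 surfactant genes had estimates below 0 in hypoxia and 0 of 6 passed. With the arrays quantile normalized again, Sftpc turned to 0.013 and Sftpb was -0.037. Sftpa1 (-0.038), Sftpd (-0.11), Abca3 (-0.050) and Lamp3 (-0.041) also stayed below 0. That scaling gives each gene the value of its rank, and Sftpc ranked 0.0138% to 0.0207% from the top in every array. Its turn therefore cannot decide its direction. Sftpb, whose small hydrophobic product SP-B spreads the surfactant film and is needed for breathing at birth, had 13.74, 13.83, 13.79 and 13.81 in hypoxia, against 13.85, 13.89, 13.94 and 13.95 in normoxia. The groups did not overlap, which places Sftpb among the same 5.33% of genes. The log2 difference was -0.11 (SE 0.045, interval -0.21 to -0.018, limma adjusted p = 0.163; exact 2-sided permutation p = 0.0286, the smallest that 4 against 4 arrays can give). Sftpc, which encodes the membrane-embedded SP-C and is the most specific marker of type 2 cells, had 13.83, 13.90, 13.94 and 13.92 in hypoxia, against 13.99, 13.99, 13.98 and 13.92 in normoxia. Those groups overlapped through normoxia replicate 4 (log2 -0.076, interval -0.17 to 0.019, limma adjusted p = 0.367).

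Sftpa1 and Sftpd encode collectins, secreted lectins that bind microbes, and SP-A also takes part in tubular myelin. Sftpa1 differed by -0.076 (interval -0.18 to 0.030) and Sftpd by -0.076 (interval -0.28 to 0.13). Abca3, the lipid pump of lamellar bodies, differed by -0.019 (interval -0.17 to 0.14). Lamp3, a lysosomal membrane protein of lamellar bodies, differed by -0.012 (interval -0.23 to 0.20). The median over the 10 members is not given as support, since they were chosen with results of these data known.

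**Figure D2:**
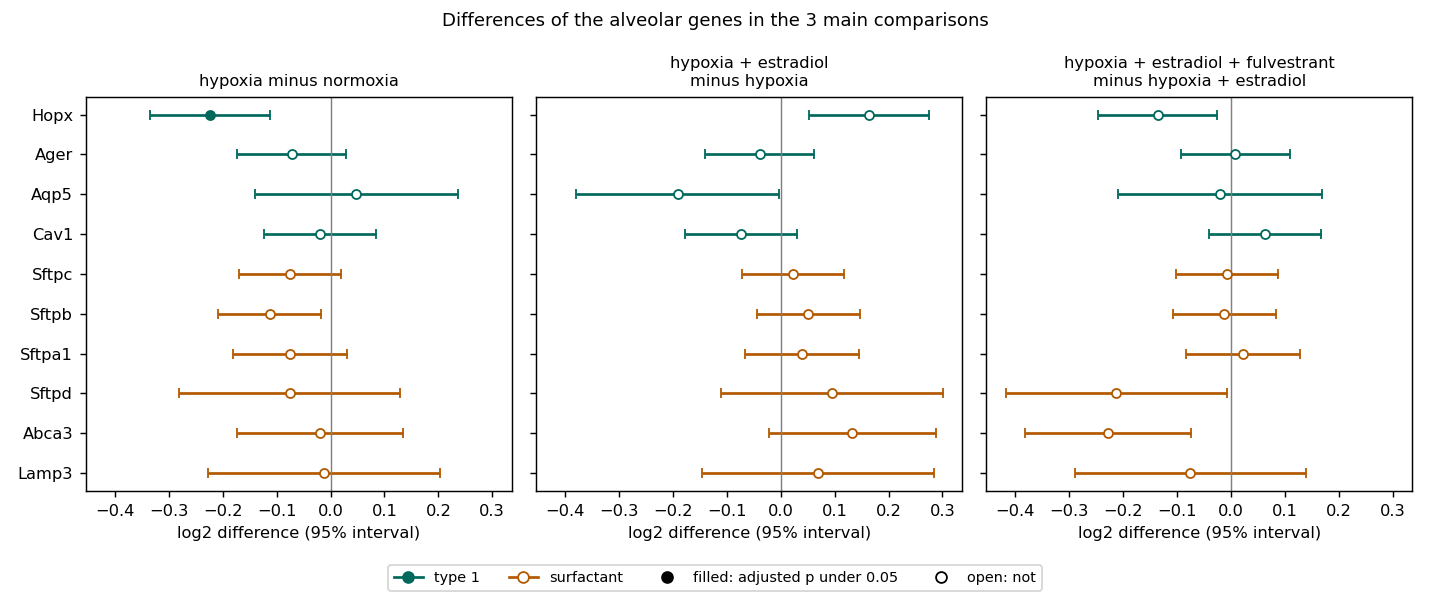
Points are log2 differences of the 10 genes in the 3 main comparisons, with 95% intervals from the limma fit; a filled point marks an adjusted p under 0.05. The filled point is Hopx in hypoxia minus normoxia (-0.22), and its estimate is 0.16 with estradiol and -0.14 when fulvestrant was added.

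The second question is the effect of estradiol in hypoxic rats, read against hypoxia alone. The members showed no call in this comparison, 0 of 10 in either direction, where 0.772% of all genes passed, and 2 of 10 had an unadjusted p under 0.05, as did 16.1% of all genes. Without estradiol replicates 2 and 3 the number of genes called over the whole table was 0 rather than 112. Hopx had 13.07, 13.17, 13.10 and 13.09 with estradiol, against 12.91, 12.92, 13.03 and 12.92 in hypoxia alone. All 4 estradiol values lay above all 4 hypoxia values, as they did for 3.19% of all genes. The log2 difference was 0.16 (SE 0.052, interval 0.053 to 0.27) and did not pass after adjustment (limma adjusted p = 0.150, exact permutation p = 0.0286). Without estradiol replicates 2 and 3 it was 0.13 (limma adjusted p = 0.552).

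Aqp5 had 12.30, 12.08, 11.99 and 12.21 with estradiol, against 12.36, 12.41, 12.24 and 12.34 in hypoxia alone. The lowest values came from estradiol replicates 2 and 3, and the groups overlapped. The log2 difference was -0.19 (interval -0.38 to -0.0028, limma adjusted p = 0.304), and -0.082 without those replicates. Ager differed by -0.039 and Cav1 by -0.074 (limma adjusted p = 0.729 and 0.482).

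The 6 surfactant genes had estimates above 0 with estradiol, between 0.022 (Sftpc) and 0.13 (Abca3), and 0 of 6 passed. Sftpc turned to -0.013 with the arrays quantile normalized again, a scaling that gives each gene the value of its rank. Sftpc ranked 0.0138% to 0.0207% from the top in every array, so this turn cannot decide its direction. Abca3 had 11.86, 11.71, 12.05 and 11.84 with estradiol, against 11.63, 11.79, 11.69 and 11.81 in hypoxia. Its groups overlapped (interval of the difference -0.021 to 0.29, limma adjusted p = 0.382). The Sftpc values with estradiol spanned only 13.91 to 13.92, an SD of 0.0047, against an SD of 0.050 in hypoxia.

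The third question is the effect of receptor blockade, with both groups hypoxic and on estradiol. Again 0 of 10 members passed, where 0.0483% of all genes did, and 3 of 10 had an unadjusted p under 0.05, as did 14.8% of all genes. Hopx had 12.88, 13.01, 12.98 and 13.02 with fulvestrant, against 13.07, 13.17, 13.10 and 13.09 with estradiol alone. The fulvestrant values were all below the estradiol values, as they were for 4.27% of all genes. The log2 difference was -0.14 (SE 0.052, interval -0.25 to -0.025, limma adjusted p = 0.231, exact permutation p = 0.0286), and -0.11 without estradiol replicates 2 and 3. This comparison shares the estradiol arrays with the one before it, and that one shares the hypoxia arrays with the first, so the 3 Hopx differences are not independent of each other.

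Among surfactant genes the difference with fulvestrant was widest for Abca3, which had 11.53, 11.57, 11.70 and 11.75 with fulvestrant, against 11.86, 11.71, 12.05 and 11.84 with estradiol alone. Estradiol replicate 2 fell within the range of the fulvestrant lungs. The log2 difference was -0.23 (SE 0.073, interval -0.38 to -0.073, limma adjusted p = 0.156). Sftpd had 12.28, 12.47, 12.28 and 12.40 with fulvestrant, against 12.55, 12.50, 12.77 and 12.44 with estradiol alone. Its groups overlapped as well (log2 -0.21, interval -0.42 to -0.0069, limma adjusted p = 0.322). The 3 brightest genes, Sftpc, Sftpb and Sftpa1, differed by -0.0078, -0.013 and 0.023.

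The remaining pairs of groups also gave no call among the 10 members. Against normoxia, where 2.96% of all genes passed, Hopx with estradiol and fulvestrant differed by -0.20 (SE 0.052, interval -0.31 to -0.085, limma adjusted p = 0.0563). All 4 of these lungs were below normoxia, as was the case for 5.2% of all genes. The limma adjusted p of this Hopx difference was 0.0724 without normoxia replicate 4 and 0.140 with that lung counted as hypoxia. With estradiol alone, where 5.21% of all genes passed against normoxia, the Hopx difference was -0.060 (interval -0.17 to 0.051, limma adjusted p = 0.614) and the groups overlapped. The order of Hopx means was therefore 12.94 ± 0.054 in hypoxia, 12.97 ± 0.064 with estradiol and fulvestrant, 13.11 ± 0.046 with estradiol and 13.17 ± 0.054 in normoxia (SD, n = 4 each). The lowest pair overlapped (log2 0.028, interval -0.083 to 0.14), and so did the highest pair.

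Ager was lower than in normoxia in both estradiol groups without passing the test. It had 13.51, 13.53, 13.47 and 13.47 with estradiol and fulvestrant and 13.52, 13.45, 13.48 and 13.50 with estradiol, against 13.62, 13.59, 13.64 and 13.54 in normoxia. Neither group overlapped with normoxia, against 5.2% of all genes with fulvestrant and 4.18% with estradiol alone. In these comparisons 15.3% and 17.8% of all genes had an unadjusted p under 0.05. The log2 differences were -0.10 (interval -0.20 to -0.0025, limma adjusted p = 0.312) and -0.11 (interval -0.21 to -0.011, limma adjusted p = 0.221). Aqp5 with estradiol and fulvestrant had 11.88, 12.19, 12.24 and 12.20, against 12.36, 12.41, 12.24 and 12.34 in hypoxia alone. These groups did not overlap, as for 2.74% of all genes, by a margin smaller than the second decimal (log2 -0.21, interval -0.40 to -0.023, limma adjusted p = 0.679). In that comparison 0 genes of 14506 passed by limma, and 1009 (6.96%) had an unadjusted p under 0.05.

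Across the 4 groups at once, the moderated F test called Hopx (F = 8.43, adjusted p = 0.0325) and none of the other 9 members, where it called 6.28% of all genes. The next smallest adjusted p values were 0.220 for Abca3 and 0.276 for Aqp5, and the largest was 0.933 for Lamp3. Over the 6 pairs of groups, 1 of 60 member differences passed. The size of a member difference was at most 0.23, or 1.17-fold, and no 95% interval reached beyond 0.42, or 1.34-fold. Larger changes of these signals between groups thus lay outside the intervals, within the limit set by probe sets near the top of the scale.

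Type 1 and surfactant genes were then set side by side. For each lung the log2 difference of every member from its normoxia mean was averaged over the 4 type 1 genes and over the 6 surfactant genes. The type 1 mean was -0.12 ± 0.048 with estradiol and fulvestrant, -0.10 ± 0.049 with estradiol and -0.067 ± 0.020 in hypoxia, against 0 ± 0.039 in normoxia (SD, n = 4 each). The surfactant mean was -0.079 ± 0.038, 0.0063 ± 0.070 and -0.062 ± 0.074 in the same 3 groups, against 0 ± 0.078 in normoxia. Every lung of the 3 hypoxic groups had a type 1 mean below 0, down to -0.20, and normoxia lungs ran from -0.057 to 0.030. The surfactant mean ranged from -0.16 to 0.10 in the 3 hypoxic groups and from -0.10 to 0.080 in normoxia. Without Hopx the type 1 mean was -0.099 ± 0.044, -0.12 ± 0.074 and -0.014 ± 0.017 in these groups, so in hypoxia alone most of it came from Hopx. These are descriptions with no test, because the members were chosen with results known.

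Type 1 minus surfactant was -0.044 ± 0.027 with estradiol and fulvestrant, -0.11 ± 0.11 with estradiol and -0.0048 ± 0.084 in hypoxia, against 0 ± 0.074 in normoxia. The lowest value, -0.27, was estradiol replicate 3, and the value of the estradiol group without it was -0.056. All 4 lungs of both estradiol groups were below 0, while hypoxia lungs ran from -0.10 to 0.094 and normoxia lungs from -0.050 to 0.11. The group ranges overlapped with normoxia in the hypoxia group and in both estradiol groups.

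**Figure D3:**
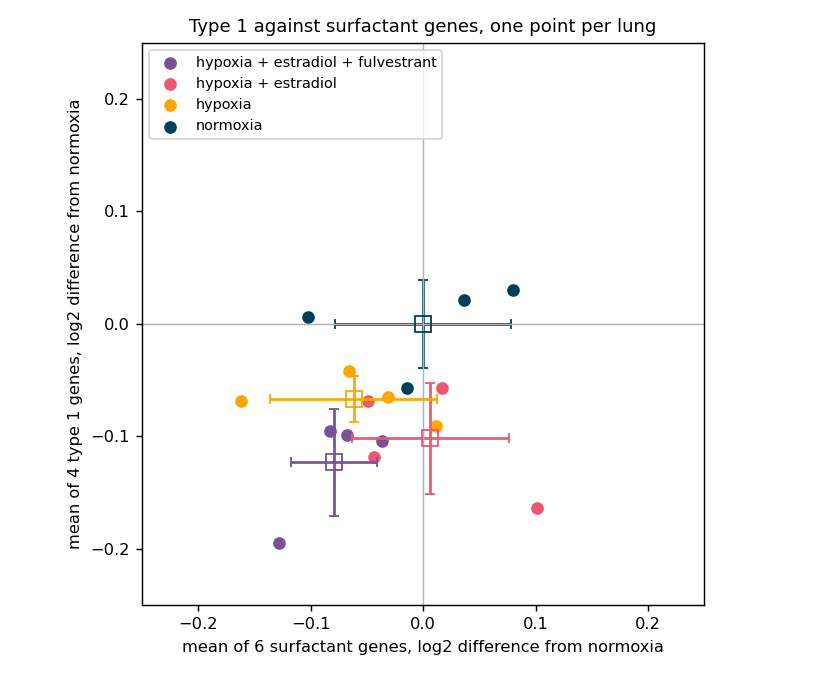
Each point is a lung, with the mean log2 difference from normoxia of the 6 surfactant genes across and of the 4 type 1 genes upward; squares and bars are group means and SD. The hypoxic groups lie below 0 on the type 1 axis (group means -0.12, -0.10 and -0.067). On the surfactant axis the lungs with estradiol and fulvestrant also lie below 0 (-0.13 to -0.037). Lungs with estradiol (-0.049 to 0.10) and hypoxia alone (-0.16 to 0.012) lie on both sides.

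Within groups, most pairs of surfactant genes varied together from lung to lung. Likeness was measured as Pearson's r of deviations from the group means over the 16 arrays, as a description with no test. Over the 15 pairs of surfactant genes the median r was 0.57, and 14 pairs were above 0. Leaving out each array in turn moved that median between 0.46 and 0.58. The closest pairs were Sftpc with Sftpa1 (r = 0.76), Sftpb with Sftpd (0.72) and Sftpa1 with Sftpd (0.70). Over the 6 pairs of type 1 genes the median was 0.075 and the highest r was 0.32. Over the 24 mixed pairs the median was -0.030, with Aqp5 and Lamp3 at 0.55 and Cav1 and Sftpd at -0.58; Cav1 was below 0 with 5 of the 6 surfactant genes. These values share the arrays, their normalization and, for the brightest genes, the top of the scale.

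**Figure D4:**
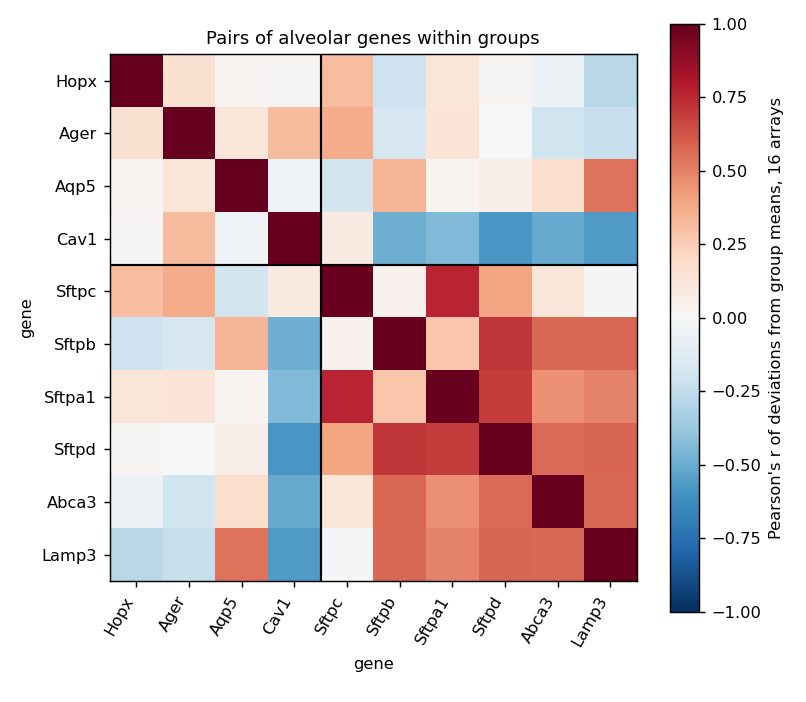
Colours give Pearson's r of deviations from group means over 16 arrays for each pair of the 10 genes, from -1 (blue) to 1 (red); black lines divide type 1 from surfactant genes. The surfactant block is mostly red (median 0.57), the type 1 block is pale (median 0.075), and Cav1 is blue against most surfactant genes.

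Outside the 10 members, the 3 genes whose deviations were most like the surfactant mean were Fasn, fatty acid synthase (r = 0.91), Tlcd4 (0.90) and Cpm, a carboxypeptidase of the type 2 cell surface (0.89). Fasn makes the palmitate of surfactant phospholipid. Fasn differed by -0.036 in hypoxia, 0.27 with estradiol and -0.47 when fulvestrant was added, with limma adjusted p of 0.900, 0.270 and 0.0795. The 3 genes most like the type 1 mean were L3mbtl2 (0.87), Gen1 (0.84) and Uba7 (0.84). These were the highest values among 14485 genes ranked over 16 arrays, with placeholder symbols skipped. Deviations were averaged without scaling, so members with a wide SD within groups weigh most in each mean. Among type 1 genes that was Aqp5 (0.13, against 0.042 to 0.055 in the others). Among surfactant genes the widest were Lamp3 (0.15), Sftpd (0.14) and Abca3 (0.099).

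Wider lists of the alveolar epithelium gave few calls. Of 21 measured genes in a wider type 1 list, which holds the 4 members, 0 rose and 1 fell in hypoxia against normoxia (Hopx). Of all genes 3.21% rose and 2.43% fell. The median log2 difference of the list was -0.072, against 0.026 over all genes. With estradiol against hypoxia, and with fulvestrant added to estradiol, 0 of 21 passed (medians -0.031 and -0.019, against -0.022 and 0.0050 over all genes). Against normoxia 2 of 21 fell with estradiol and fulvestrant, where 0.993% of all genes fell and 1.97% rose: Rtkn2 (log2 -0.25, limma adjusted p = 0.0477) and the basement membrane collagen Col4a3 (-0.37, adjusted p = 0.0228). Against normoxia 2 fell with estradiol alone, where 2.34% of all genes fell and 2.87% rose: Rtkn2, used as a type 1 marker (-0.23, limma adjusted p = 0.0498), and Cav2, the partner of Cav1 in caveolae (-0.25, adjusted p = 0.0359). The medians were -0.10 and -0.092, against 0.0043 and 0.00043 over all genes. Without estradiol replicates 2 and 3 the calls of Rtkn2 and Cav2 with estradiol alone were lost (limma adjusted p = 0.227 and 0.190), as were those of Il33 (0.0528), Csf2rb (0.216) and Stat3 (0.260) in the same comparison below. The log2 differences were then -0.20 for Rtkn2, -0.17 for Cav2, -0.60 for Il33, 0.35 for Csf2rb and 0.15 for Stat3. With fewer estradiol arrays a difference of the same size passes less easily, so a lost call alone does not place the difference in those lungs.

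Of 25 measured genes in a wider type 2 list, which holds the 6 surfactant members, 1 fell in hypoxia and 0 rose (median -0.019, against 0.026 over all genes). Of all genes 2.43% fell and 3.21% rose in that comparison. The gene of the list that fell was Il33, an alarmin that type 2 cells release in the mouse and that endothelium and fibroblasts also make. It was at 10.98 in hypoxia against 11.49 in normoxia (log2 -0.51, limma adjusted p = 0.0274). Il33 also fell with estradiol against normoxia (-0.76, limma adjusted p = 0.00294). In the comparisons of estradiol with hypoxia and of fulvestrant with estradiol 0 of 25 passed (medians 0.051 and -0.046). Against normoxia the median of this list was -0.11 with estradiol and fulvestrant, as low as that of the wider type 1 list (-0.10). With estradiol alone it was -0.017, against -0.092 in the wider type 1 list. For surfactant lipid synthesis, 0 of 18 passed in each of the 3 main comparisons, with medians of 0.011 in hypoxia, 0.11 with estradiol and -0.16 when fulvestrant was added, against 0.026, -0.022 and 0.0050 over all genes. Of 21 genes for the regulation, processing and clearance of surfactant 0 passed in the main comparisons. With estradiol against normoxia 2 rose, where 2.87% of all genes rose. They were the receptor chain Csf2rb of the factor that drives surfactant clearance by macrophages (0.58) and Stat3 (0.21).

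Of 12 measured genes of alveolar fluid transport 3 rose in hypoxia and 0 fell (median 0.086), where 3.21% of all genes rose: the kinase Sgk1, which raises sodium channel activity (log2 0.81, limma adjusted p = 4.47e-05), the chloride cotransporter Slc12a2 (0.38, adjusted p = 0.00816) and the water channel Aqp1 of capillary endothelium (0.32, adjusted p = 0.0189). With estradiol against hypoxia 1 of 12 rose, the sodium pump subunit Atp1b1 (0.41, limma adjusted p = 0.0405), where 0.31% of all genes rose, and with fulvestrant added to estradiol 0 passed (medians 0.12 and -0.19). The Atp1b1 call was lost without estradiol replicates 2 and 3 (0.30, limma adjusted p = 0.296). Against normoxia 3 of 12 rose in each estradiol group, where 1.97% of all genes rose with fulvestrant and 2.87% with estradiol alone. With fulvestrant they were Sgk1 (0.94), Aqp1 (0.39) and Slc12a2 (0.38), and with estradiol alone Sgk1 (1.03), Aqp1 (0.32) and Scnn1g, a subunit of the epithelial sodium channel (0.34). Of the estradiol calls, that of Scnn1g was lost without estradiol replicates 2 and 3 (limma adjusted p = 0.0858). Its log2 difference was then 0.40, no smaller than with all estradiol arrays. Aqp5 is a member of that list and did not pass, as given above. Of 9 caveolae genes 1 rose in hypoxia, where 3.21% of all genes rose. It was Cavin3 (0.68, limma adjusted p = 0.00194), and 0 passed in the other main comparisons. Against normoxia Cavin3 also rose with estradiol and fulvestrant (0.75, limma adjusted p = 0.00117), and with estradiol alone Cav2 fell, as given above. Of 10 genes of transitional epithelial states, which type 2 cells enter on the way to type 1 cells, 1 rose in hypoxia. It was the matrix gene Fn1 (0.29, limma adjusted p = 0.0376), beside the same 3.21% of all genes. In the other main comparisons 0 of these 10 passed. Against normoxia 1 rose with estradiol, the growth factor Areg (1.36, limma adjusted p = 0.0322), and 0.55 without estradiol replicates 2 and 3 (limma adjusted p = 0.241). The mean of the transitional list above normoxia was -0.056 to 0.068 with estradiol and fulvestrant, 0.12 to 0.60 with estradiol and -0.0041 to 0.14 in hypoxia, against -0.17 to 0.12 in normoxia. The high values were those of estradiol replicates 2 and 3 (0.60 and 0.38), against 0.15 and 0.12 in replicates 1 and 4.

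**Figure D5:**
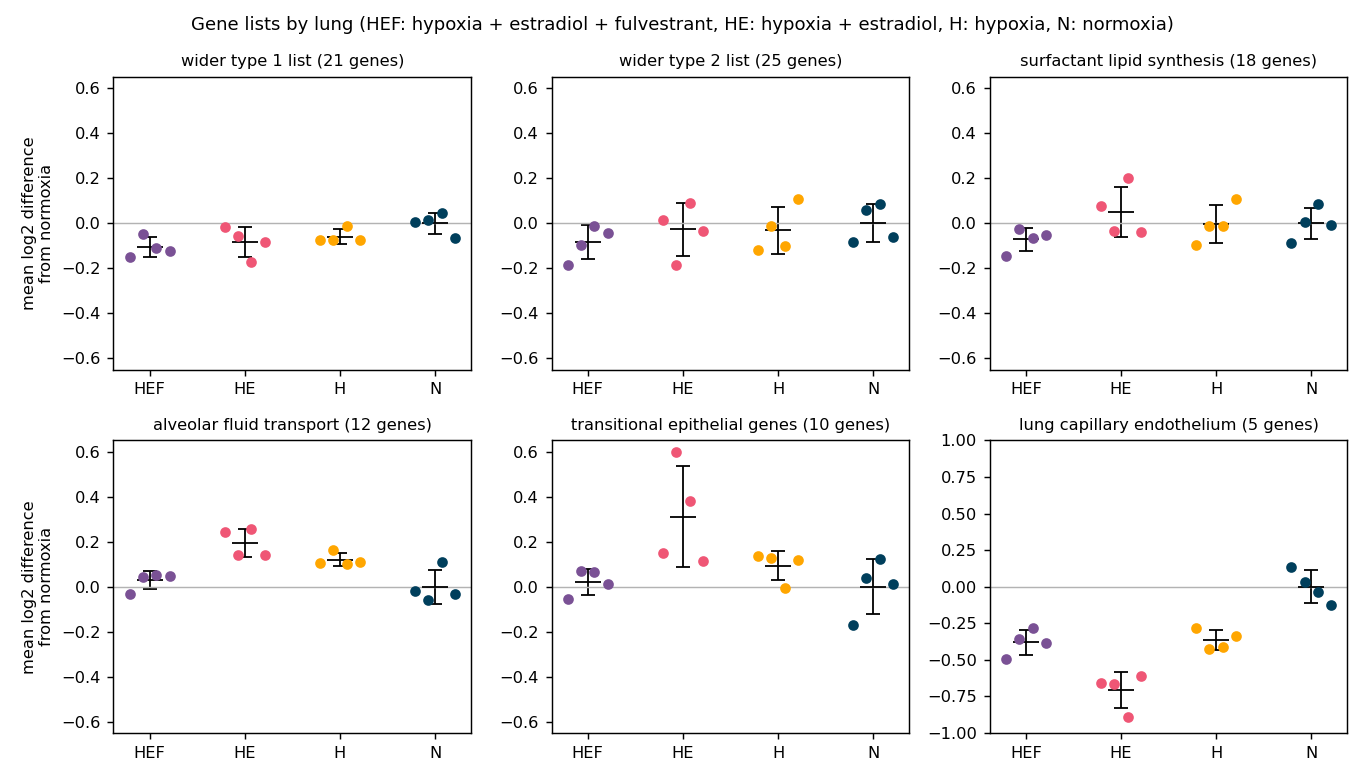
Points give, for each lung, the mean log2 difference from normoxia over the genes of 6 lists, with group means and SD; the panel of capillary endothelium has a wider axis than the other 5. The wider type 1 list averages -0.11, -0.083 and -0.059 in the 3 hypoxic groups, fluid transport 0.028, 0.20 and 0.12, the transitional list 0.022, 0.31 and 0.094, and the capillary markers -0.38, -0.71 and -0.36, in the order drawn.

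Markers of other cells differed between the same groups, and their part in the Hopx difference was not tested. The mean of 5 capillary endothelial markers relative to normoxia was -0.50 to -0.28 with estradiol and fulvestrant, -0.89 to -0.61 with estradiol and -0.43 to -0.28 in hypoxia, against -0.13 to 0.14 in normoxia. In hypoxia 1 of the 5 rose and 2 fell, where 3.21% of all genes rose and 2.43% fell. With estradiol against hypoxia 2 of the 5 fell, Apln (-0.81) and Car4 (-0.33), where 0.772% of all genes passed in either direction. The mean of 7 general endothelial markers was 0.039 to 0.096, -0.16 to 0.12 and 0.041 to 0.14 in the same 3 groups, against -0.052 to 0.027 in normoxia. In hypoxia Emcn rose (0.69) and Tek fell (-0.35), so endothelial markers did not move one way. For 6 alveolar macrophage markers the mean was 0.29 to 0.38, 0.40 to 1.02 and 0.28 to 0.83 in those groups, against -0.11 to 0.082 in normoxia, and 2 rose in hypoxia. For 6 T cell markers it was -0.40 to 0.077, -0.47 to -0.013 and -0.77 to -0.52, against -0.37 to 0.35 in normoxia, and 4 fell in hypoxia. For 6 neutrophil markers it was -0.18 to 0.36, 0.40 to 1.35 and -1.13 to -0.28, against -0.47 to 0.26 in normoxia. All 6 rose with estradiol against hypoxia, where 0.31% of all genes rose. The T cell marker Il7r (0.90) and the macrophage marker Mrc1 (0.49) also rose in that comparison. When fulvestrant was added Mrc1 fell (-0.57, limma adjusted p = 0.0403), where 0.0483% of all genes passed. Without estradiol replicates 2 and 3 the calls of both comparisons were lost, and 0 genes of the whole table passed in either. The Mrc1 differences were then 0.43 and -0.51. Those of the neutrophil markers with estradiol ran from 0.88 (Csf3r) to 1.51 (Retnlg), against 1.27 (Csf3r) to 1.94 (Mmp8) with all estradiol arrays. Of 4 erythroid markers 1 rose in hypoxia, with means of 0.76 to 2.33, -0.16 to 2.0 and -0.11 to 2.43, against -0.20 to 0.23 in normoxia. Of 5 club cell, 6 ciliated cell and 6 fibroblast markers 0 passed in the 3 main comparisons.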

How the data were processed

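Per the submitters' processing notes, the authors made the deposited log2 values with RMA and Partek; versions, settings and genome build are not given in the sources used here. Arrays hold no count depth, so 4 arrays per group set the precision. Array medians of 7.69 to 7.77 and 0 missing values bear out that scale. Of 29214 probe sets, 15310 had exactly 1 gene symbol, 323 several and 13581 none; 527 genes had more than 1 probe set and were represented by their brightest, leaving 14506 genes.

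Groups came from the sample titles; replicate numbers follow submission order and pair nothing. Tests used R 4.3.3 and limma 3.58.1: 4 group means, empirical Bayes, Benjamini-Hochberg over all genes, 2-sided, tested on simulated data first. Exact permutation tests used scipy 1.17.1 over 70 splits. No batch is labelled. Promoter windows are from RefSeq (GRCr8); the tables hold no proteins used here. The members and lists were chosen with earlier results of these data known. Named genes are the members, up to 4 passing genes of each list per main comparison, and the 3 genes most like each class; list genes that passed in either estradiol group against normoxia lie outside that rule and were named after their values were seen, as was the brightness limit of Abca3. Alternatives were other scalings, filters and probe set rules, a fit of only the groups compared, a trended robust fit, the conflicting label, each array left out, and, added after seeing the data, estradiol replicates 2 and 3 left out and Hopx left out of the type 1 mean.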

Additional observations from a re-analysis of the deposited data

Results flagged for a closer look

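Of 40 sets of 4 arrays (10 genes in 4 groups), 3 had 1 array far from the other 3 by Dixon's criterion for 4 samples, where chance gives about 1 in 20. Hopx in hypoxia replicate 3 was at 13.03, above 12.91 to 12.92 in the other hypoxia lungs. Aqp5 in replicate 1 of the estradiol and fulvestrant group was at 11.88, below 12.19 to 12.24 in the others. Sftpc in normoxia replicate 4, the lung with conflicting labels, was at 13.92, below 13.98 to 13.99 in the other normoxia lungs.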

How the results depend on the processing

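The number of members called in hypoxia against normoxia was 1 (Hopx) and became 0 with only the 2 groups in the fit (Hopx limma adjusted p = 0.0670) and 0 with normoxia replicate 4 counted as hypoxia; leaving out 1 array each gave 0 to 1, with 0 without normoxia replicate 1 and hypoxia replicates 1 and 2. In hypoxia with estradiol and fulvestrant against normoxia the count was 0 and became 1 (Hopx) with quantile normalization again (limma adjusted p = 0.0432), 1 without the dimmest 25% of genes (0.0366) and 1 with the trended robust fit (0.0195). The F test over 4 groups called 1 member (Hopx), and 0 with every probe set tested (adjusted p = 0.0533), 0 with normoxia replicate 4 counted as hypoxia, 0 without estradiol replicates 2 and 3, and 0 to 1 with single arrays left out; 0 came without normoxia replicates 1, 2 and 3, hypoxia replicates 1, 2 and 4, and replicate 3 of the fulvestrant group. Type 1 minus surfactant with estradiol and fulvestrant was -0.044, and -0.075 without Cav1; without Hopx, an alternative added after seeing the data, it was -0.020, and the hypoxia value was 0.047 rather than -0.0048; with 1 array left out it ran from -0.061 to -0.0083, the value nearest 0 without normoxia replicate 1. The number of genes called over the whole table also moved. In hypoxia against normoxia it was 817, 40 with normoxia replicate 4 counted as hypoxia, and 428 to 986 with 1 array left out. In estradiol against hypoxia it was 112, 4 with every probe set tested, 5 with only the 2 groups, 0 with normoxia replicate 4 counted as hypoxia, 0 without estradiol replicates 2 and 3, and 3 to 355 with 1 array left out. When fulvestrant was added to estradiol it was 7, between 0 and 44 under other settings, and 0 to 331 with 1 array left out. Against normoxia it was 756 with estradiol (216 with only the 2 groups, 351 with the conflicting lung moved, 325 without estradiol replicates 2 and 3, 384 to 887 with 1 array left out) and 430 with fulvestrant added (100 with the conflicting lung moved, 238 to 374 with 1 array left out). With fulvestrant against hypoxia alone it was 0, and 2 with only those groups. The F test called 911 genes, 131 with the conflicting lung moved and 488 to 1162 with 1 array left out. The causes were not tested. In the other 4 pairs of groups the count stayed at 0 under every alternative run, and no called member difference changed sign. Quantile normalization again turned the uncalled Sftpc difference in hypoxia from -0.076 to 0.013 and with estradiol against hypoxia from 0.022 to -0.013. With fulvestrant against hypoxia it turned from 0.014 to -0.013. That scaling sets values by rank, and Sftpc stayed 0.0138% to 0.0207% from the top, so these turns cannot decide its directions. Other small uncalled differences turned too. They were Ager with fulvestrant added to estradiol (0.0081 to -0.015), Sftpd with estradiol against normoxia (0.019 to -0.0046) and Sftpa1 with fulvestrant against normoxia (-0.013 to 0.017). No paired analysis was possible because replicate numbers were given in submission order and pair nothing. Arrays near the top of their scale limit what Sftpc, Sftpb and Sftpa1 can show, and Cav1 and Ager lay next below them.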
